A study of Mus musculus with 4 samples.

Results

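The core planar cell polarity genes of the mouse were examined as a family of 10: Vangl1, Vangl2, Celsr1, Celsr2, Celsr3, Prickle1, Prickle2, Dvl1, Dvl2 and Dvl3. They were chosen by symbol, and all 10 were found among the 23996 genes of the deposited table. The study compared a pair of cell populations, each with 2 libraries, that had been sorted out of dissociated cochlear epithelium from C57BL/6 mice 7 days after birth. New hair cells carried both eGFP and tdTomato and were induced by Atoh1 overexpression. Original hair cells carried eGFP alone. The mice held Sox2-CreER, Atoh1-HA, Atoh1-eGFP and tdTomato alleles, and the dose of tamoxifen was 0.20 mg/g, injected into the abdomen late on day 3. Because tdTomato marks every cell in which Cre acted, it follows Sox2 expression and not the transgene alone. The labels also mention control mice that received only corn oil, and they do not say which mice gave which cells, nor whether the 2 libraries of a group came from separate animals.

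Planar cell polarity is the alignment of cells within the plane of an epithelium. Its core proteins form opposed complexes at cell borders, with Vangl and Prickle on one face of a cell and Frizzled and Dishevelled (Dvl) on the other, while the atypical cadherins of the Celsr family join neighbouring cells. In the cochlea the pathway is known for setting the common orientation of the hair bundles and for elongation of the organ during development. Most of this is known from the embryonic ear, before the age sampled here.

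Each value was FPKM, the fragments counted per kilobase of a transcript as a part of all those mapped, a unit that corrects for transcript length and so lets genes be set beside each other. Both libraries of a population were represented by 1 value in the table. For this reason no error can be given, and how far the libraries of a population lay apart is not known. The depth of the libraries is unknown. The FPKM columns summed to 244225 in new and 2165833 in original hair cells, 8.87-fold apart. Directions are therefore given on the deposited scale, and turns under another scaling are named for the members, the list genes described and the sums. In bulk samples, fewer cells of a type and less RNA per cell cannot be told apart. Atoh1 itself stood at 83.4 FPKM in new and 791 FPKM in original hair cells. It was lower in the population labelled as Atoh1-induced on the deposited scale and after every other scaling tried. The log2(FPKM + 1) difference was -3.23 as deposited and -2.89 with trimmed-mean scaling. It was only -0.19 after quantile normalization and -0.10 when the FPKM sums were made equal. Both populations were sorted on an Atoh1 reporter and the transgene was not counted apart, so Atoh1 is a poor check of the labels, and every direction below takes the labels as given.

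To show the regulatory sequence of the members at the top of each population, the stretches before the first annotated start of Dvl3, the highest member in new hair cells, and Celsr3, the highest in original hair cells, are given from RefSeq (GRCm38.p6, plus strand, 5′ to 3′). Dvl3 spans chr16:20516736-20516948 and Celsr3 chr9:108825795-108826022. Capitals mark the E-box words CAGCTG and CAGATG on either strand, searched because Atoh1 is a basic helix-loop-helix factor and such factors bind E-boxes.
Dvl3: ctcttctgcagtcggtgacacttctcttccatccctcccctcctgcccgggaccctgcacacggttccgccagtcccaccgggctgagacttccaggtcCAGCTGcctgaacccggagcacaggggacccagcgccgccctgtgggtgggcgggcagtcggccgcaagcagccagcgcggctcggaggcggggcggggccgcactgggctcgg
Celsr3: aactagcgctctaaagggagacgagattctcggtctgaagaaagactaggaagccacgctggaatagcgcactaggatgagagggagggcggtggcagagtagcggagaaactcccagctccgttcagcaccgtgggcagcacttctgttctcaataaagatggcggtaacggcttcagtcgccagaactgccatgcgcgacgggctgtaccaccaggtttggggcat
The Dvl3 stretch held 1 such word, CAGCTG, and the Celsr3 stretch none. Promoter windows of 300 bases were found for 8 of the 10 members, the others being Vangl1 and Celsr1. Of their 12 windows 5 held either word, in Celsr2, Prickle2 and Dvl3, against 30.6% of all 32851 windows in the table. Prickle2 had several windows and most of those with a word. By member it was 3 of the 8, for which no share by gene over all windows was computed. A match is a word in a sequence and not a binding site.

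All 10 members were listed above 0 in both populations, at low levels. The highest value of any member was 2.83 FPKM in new hair cells and 13.1 FPKM in original hair cells. Only Vangl2, Celsr2 and Dvl3 reached 1 FPKM in new hair cells, and only Celsr1 and Celsr3 did so in original hair cells. No member reached 1 FPKM in both, where 44.8% of the 14215 genes above 0 in both did. Of the members 5 are tested genes, which are the 9026 genes above 0 in both populations and at 1 FPKM or more in at least 1. In new hair cells the order of levels was Dvl3, Celsr2, Vangl2, Vangl1, Dvl2, Celsr1, Dvl1, Prickle2, Prickle1 and Celsr3. In original hair cells it was Celsr3, Celsr1, Prickle2, Vangl1, Dvl2, Dvl1, Celsr2, Prickle1, Dvl3 and Vangl2. Without a spread between libraries, it cannot be said which neighbours in these orders differ.

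**Figure D1:**
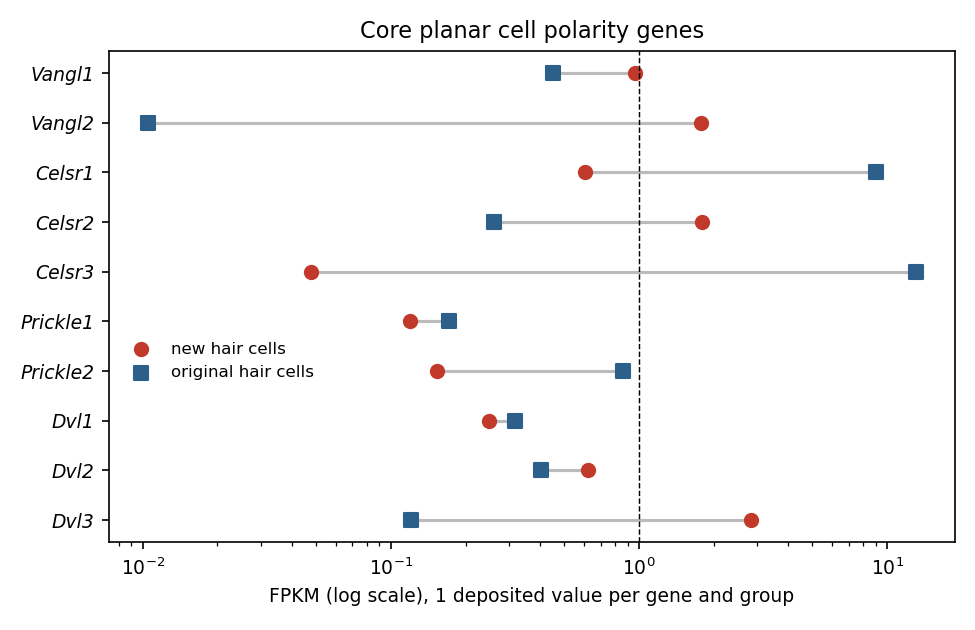
FPKM of the 10 core planar cell polarity genes on a log axis, with new hair cells as red circles and original hair cells as blue squares, 1 deposited value each and the dashed line at 1 FPKM. Vangl2, Celsr2 and Dvl3 lie right of the line in new hair cells only, and Celsr1 and Celsr3 in original hair cells only.

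The Celsr genes encode large cadherins that link polarity complexes across cell borders. Celsr1 (mm10, chromosome 15, 85898758 to 86033777), whose mutation in mice misorients hair bundles, stood at 0.605 FPKM in new and 8.996 FPKM in original hair cells. It was 14.9-fold lower in new hair cells and stayed lower under every scaling tried. The authors' deposited table gave p = 0.0652. Celsr3 (chromosome 9, 108826320 to 108852969), best known for its part in axon guidance, stood at 0.0477 FPKM in new and 13.1 FPKM in original hair cells. This was 275-fold lower in new hair cells, the widest gap of any member on the deposited scale, and it too stayed lower under every scaling. With equal sums the differences of Dvl3 and Vangl2 were larger, at 4.54 and 4.05 on the log2(FPKM + 1) scale against -3.31 for Celsr3. The authors' deposited table gave p = 0.0561. Celsr2 (chromosome 3, 108390848 to 108415494) went the other way, at 1.79 FPKM in new and 0.260 FPKM in original hair cells. It was 6.86-fold higher in new hair cells on the deposited scale and higher under every other scaling, with p = 0.374 in the authors' deposited table.

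The makeup of the Celsr family does not depend on any factor that scales a whole column, since each share is taken within 1 population. Quantile normalization is not such a factor, and shares were not computed after it. Celsr2 held 73.3% of the summed Celsr FPKM in new and 1.16% in original hair cells. Celsr1 held 24.8% in new and 40.2% in original hair cells. Celsr3 held 1.96% in new and 58.6% in original hair cells. Celsr2 was thus 37.4 times the level of Celsr3 in new hair cells, while Celsr3 was 50.3 times the level of Celsr2 in original hair cells. The family sum was 2.44 FPKM in new and 22.4 FPKM in original hair cells. As a part of each column's total, however, it came to 0.000999% in new and 0.00103% in original hair cells, so the 9.17-fold lower sum in new hair cells is close to the difference of the column totals.

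Vangl1 and Vangl2 encode the membrane proteins that define the Vangl face of the cell. Vangl2 (chromosome 1, 172004371 to 172027268), whose loop-tail mutation in mice is the classic cause of misoriented hair bundles, stood at 1.77 FPKM in new and 0.0105 FPKM in original hair cells. It was 169-fold higher in new hair cells and higher under every scaling, yet p was 0.253 in the authors' deposited table. Vangl1 (chromosome 3, 102155900 to 102204693) stood at 0.965 FPKM in new and 0.451 FPKM in original hair cells, 2.14-fold higher in new hair cells on the deposited scale and higher under every other scaling. Its p in the authors' deposited table was 0.488. Vangl2 held 64.7% of the Vangl sum in new and 2.27% in original hair cells.

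FPKM can be turned into a rate of fragments. Taking the longest annotated transcript of Vangl2, 6528 bases in GENCODE, its value in original hair cells corresponds to 1 fragment in every 14600000 mapped, while its value in new hair cells corresponds to 1 in every 86500. For Celsr3, with 11571 bases, it is 1 in every 1810000 in new and 1 in every 6590 in original hair cells. How many fragments lay behind either value was not known here, and the transcript lengths used by the authors were not given in the sources used here.

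Dvl1, Dvl2 and Dvl3 encode Dishevelled scaffolds, which act in planar polarity on the Frizzled face and also in Wnt signalling through beta-catenin. Dvl3 (chromosome 16, 20517064 to 20532187) stood at 2.83 FPKM in new and 0.121 FPKM in original hair cells. It was 23.4-fold higher in new hair cells on the deposited scale and higher under every other scaling, with p = 0.130 in the authors' deposited table. Dvl2 (chromosome 11, 70000626 to 70010109) stood at 0.621 FPKM in new and 0.403 FPKM in original hair cells, with p = 0.782 in the authors' deposited table. Dvl1 (chromosome 4, 155847412 to 155863353) stood at 0.248 FPKM in new and 0.316 FPKM in original hair cells, a difference that turned to higher in new hair cells with trimmed-mean scaling and with equal sums. Its locus in the table also held Tas1r3, so reads may be divided between them. Dvl3 held 76.5% of the Dvl sum in new and 14.4% in original hair cells, where Dvl2 held 48.0% and Dvl1 37.6%.

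Prickle1 and Prickle2 encode LIM-domain proteins that bind Vangl on the inner face of the membrane. Prickle2 (chromosome 6, 92370892 to 92706184) stood at 0.153 FPKM in new and 0.859 FPKM in original hair cells, with p = 0.430 in the authors' deposited table. Prickle1 (chromosome 15, 93499114 to 93595891) stood at 0.119 FPKM in new and 0.172 FPKM in original hair cells. Both were lower in new hair cells on the deposited scale, and both turned to higher with equal sums, Prickle1 also after quantile normalization. Prickle2 held 56.2% of the Prickle sum in new and 83.3% in original hair cells. The deposited p was exactly 1 for Prickle1 and Dvl1, as for 25.9% of the 14215 genes above 0 in both populations, in the authors' deposited table.

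**Figure D2:**
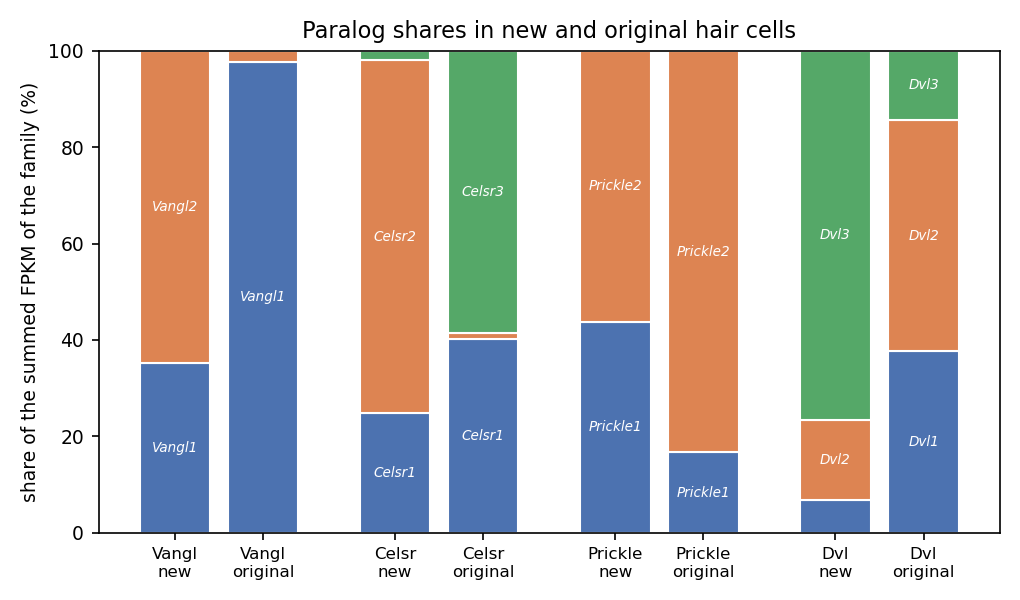
Share of each paralog in the summed FPKM of its family (percent), with new hair cells left of original hair cells in each family. The tallest segment differs between the populations for Vangl (Vangl2 at 64.7% in new, Vangl1 at 97.7% in original), Celsr (Celsr2 at 73.3%, Celsr3 at 58.6%) and Dvl (Dvl3 at 76.5%, Dvl2 at 48.0%), and is Prickle2 in both for Prickle.

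The opposed complexes were also summed. Vangl and Prickle together came to 3.01 FPKM in new and 1.49 FPKM in original hair cells. The Dvl genes with Fzd3 and Fzd6, the Frizzled receptors of planar polarity in mammals, came to 7.57 FPKM in new and 3.88 FPKM in original hair cells. Both sums were higher in new hair cells, 2.02-fold and 1.95-fold, but their parts differed. The Vangl genes came to 2.74 FPKM in new and 0.462 FPKM in original hair cells, Prickle1 with Prickle2 to 0.273 in new and 1.03 in original. Fzd3 stood at 0.750 FPKM in new and 1.17 FPKM in original hair cells, but was higher in new with equal sums. Prickle3 and Ankrd6, described below, were not in these sums and were lower in new hair cells on the deposited scale. The sum over the 10 members was 9.15 FPKM in new and 24.7 FPKM in original hair cells, and the Celsr genes made up most of it in original hair cells. With equal sums that total turned to 3.29-fold higher in new hair cells.

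Ranks within each population went the same way for these members. Among genes above 0, Vangl2 lay at percentile 61.2 in new and 4.58 in original hair cells, Dvl3 at 68.6 in new and 17.1 in original, and Celsr2 at 61.4 in new and 27.2 in original. Celsr3 lay at percentile 21.5 in new and 79.6 in original hair cells, and Celsr1 at 44.8 in new and 76.4 in original. Set among the ratios of new over original of all 14215 genes above 0 in both, Vangl2 lay at percentile 99.5, Dvl3 at 97.6 and Celsr2 at 92.0, against 1.99 for Celsr3 and 16.3 for Celsr1. The remaining members lay between percentiles 25.1 and 73.9.

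On the log2(FPKM + 1) scale, which understates the change of low genes, the difference of new minus original was 1.77 for Dvl3, 1.46 for Vangl2, 1.14 for Celsr2, -2.64 for Celsr1 and -3.75 for Celsr3. The other members lay between -0.69 and 0.44. In all, new hair cells had the higher value for 5 members and the lower value for 5, with a median difference of 0.071, where the median of all genes above 0 in both was -0.04. At least 2-fold higher on this scale were 3 of the 10 and at least 2-fold lower 2 of the 10, where the same held for 12.6% and 22.2% of all genes above 0 in both. The filter of 1 FPKM left 5 members, the same 3 and 2, against 19.9% higher and 34.9% lower of the tested genes. Each of these 5 passed the filter through the population where it was high, so nothing can be read from that count. No member had p under 0.05 in the authors' deposited table, as 9.38% of the tested genes had, and after Benjamini-Hochberg adjustment of the deposited p-values none of the 9026 tested genes passed 0.05.

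**Figure D3:**
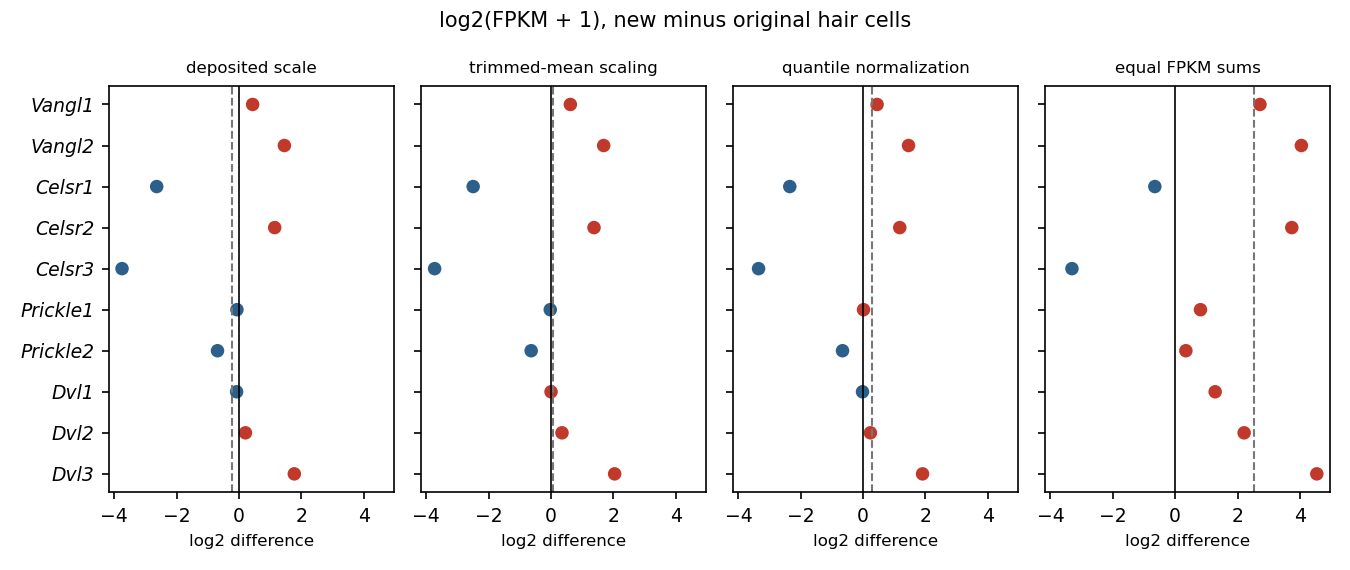
Difference in log2(FPKM + 1), new minus original hair cells, for each member on the deposited scale and after 3 other scalings, with red points above 0, blue points below 0 and the dashed line at the median of all tested genes. Celsr1 and Celsr3 stay left of 0 in all panels, and Vangl1, Vangl2, Celsr2, Dvl2 and Dvl3 stay right of 0, while Prickle1, Prickle2 and Dvl1 turn.

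Scaling moved the median of all genes, though not every gene by the same amount. The median difference of the tested genes was -0.21 on the deposited scale, 2.53 with equal sums, 0.28 after quantile normalization and 0.06 with trimmed-mean scaling. With equal sums 8 of the 10 members were higher in new hair cells, and only Celsr1 and Celsr3 were lower. Relative to that median of 2.53, Celsr2, Dvl3, Vangl2 and Vangl1 still lay above it, at 3.74, 4.54, 4.05 and 2.72.

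Other components of planar polarity were described by 6 lists, which hold the members' receptors, ligands, regulators and effectors and the machinery inside the hair cell that places the bundle. The value in new hair cells was the higher one for 45.3% of all 9026 tested genes and the lower one for 54.7%, and each list's count is to be read beside these shares. Among other core receptors and adaptors, 1 of 4 tested genes was higher and 3 were lower in new hair cells. Ankrd6, the homolog of Drosophila Diego that binds Dishevelled, stood at 2.13 FPKM in new and 222 FPKM in original hair cells, 104-fold lower in new. Its p was 0.0243 in the authors' deposited table. Fzd6 stood at 3.12 FPKM in new and 1.87 FPKM in original hair cells. Prickle3, a relative of Prickle1 and Prickle2 whose locus is shared with another gene, stood at 1.03 FPKM in new and 5.76 FPKM in original hair cells, but was higher in new with equal sums.

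Of the polarity Wnt ligands and their coreceptors, 1 of 4 tested genes was higher and 3 were lower in new hair cells, and these 3 had p under 0.05 in the authors' deposited table. They were lower under every scaling. Wnt5a, a ligand that directs planar polarity in the cochlea, stood at 2.66 FPKM in new and 351 FPKM in original hair cells. Gpc4, a cell surface proteoglycan, stood at 1.84 FPKM in new and 102 FPKM in original hair cells. Wnt9a, another Wnt ligand, stood at 0.300 FPKM in new and 28.7 FPKM in original hair cells. Ryk, a Wnt coreceptor chosen after its values were seen, was the higher one, at 3.001 FPKM in new and 1.33 FPKM in original hair cells. The remaining 7 genes of that list, among them the coreceptors Ror1, Ror2 and Ptk7, stayed under 1 FPKM in both populations.

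Regulators of core protein traffic and stability had 5 of 11 tested genes higher and 6 lower in new hair cells, close to the 45.3% of all tested genes that were higher. Nos1ap, an adaptor that binds the Vangl partner Scrib, stood at 4.99 FPKM in new and 0.272 FPKM in original hair cells, 18.3-fold higher in new under the deposited scale and higher under every other, with p = 0.0458 in the authors' deposited table. Gipc1, an adaptor of myosin VI, stood at 6.13 FPKM in new and 52.8 FPKM in original hair cells, and turned to higher in new with equal sums. Sestd1, which binds Vangl2, stood at 0.880 FPKM in new and 11.9 FPKM in original hair cells. Atp6ap2, an accessory subunit of the vacuolar proton pump, stood at 21.2 FPKM in new and 188 FPKM in original hair cells.

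Of 9 tested effectors, 5 had the higher value in new hair cells and 4 the lower. The small GTPases Cdc42, Rac1 and Rhoa, which remodel actin, were the most abundant. Cdc42 stood at 50.8 FPKM in new and 134 FPKM in original hair cells, Rac1 at 34.1 in new and 43.1 in original, and Rhoa at 15.5 in new and 33.6 in original. With equal sums and after quantile normalization new hair cells had the higher value of all 3, and of Rac1 also with trimmed-mean scaling. The giant cadherins of the Fat and Dachsous system, a polarity system parallel to the core, were scarce, and only Dchs1 and Fat1 reached 1 FPKM in a population. Dchs1 stood at 0.0595 FPKM in new and 1.12 FPKM in original hair cells, and Fat1 at 0.345 in new and 1.05 in original, the second turning to higher in new with equal sums.

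The machinery that orients the bundle inside each hair cell had 6 of 14 tested genes higher and 8 lower in new hair cells, 3 of the 8 with p under 0.05 in the authors' deposited table and none of the 6. The share that was higher is again near that of all tested genes. Of all tested genes 9.38% had p under 0.05 in that table, and none passed 0.05 after Benjamini-Hochberg adjustment. Insc, an adaptor of the complex that marks the bare zone beside the bundle, stood at 11.3 FPKM in new and 1283 FPKM in original hair cells. Kif3a, a kinesin motor subunit of cilia, stood at 5.81 FPKM in new and 256 FPKM in original hair cells, and Pak1, a kinase activated by Rac, at 2.76 in new and 171 in original. These 3 were lower in new hair cells under every scaling. Gnai2, a G protein subunit of the same bare zone complex as Insc, stood at 85.4 FPKM in new and 39.8 FPKM in original hair cells, higher in new under every scaling. Emx2, a transcription factor that sets hair cell orientation, stood at 0.419 FPKM in new and 17.1 FPKM in original hair cells, and Gpsm2, the scaffold that holds Gnai proteins at the membrane, at 7.20 in new and 2.87 in original. Emx2 and Gpsm2 were chosen after their values were seen. The locus of Gpsm2 is shared with another gene, so reads may be divided between them.

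**Figure D4:**
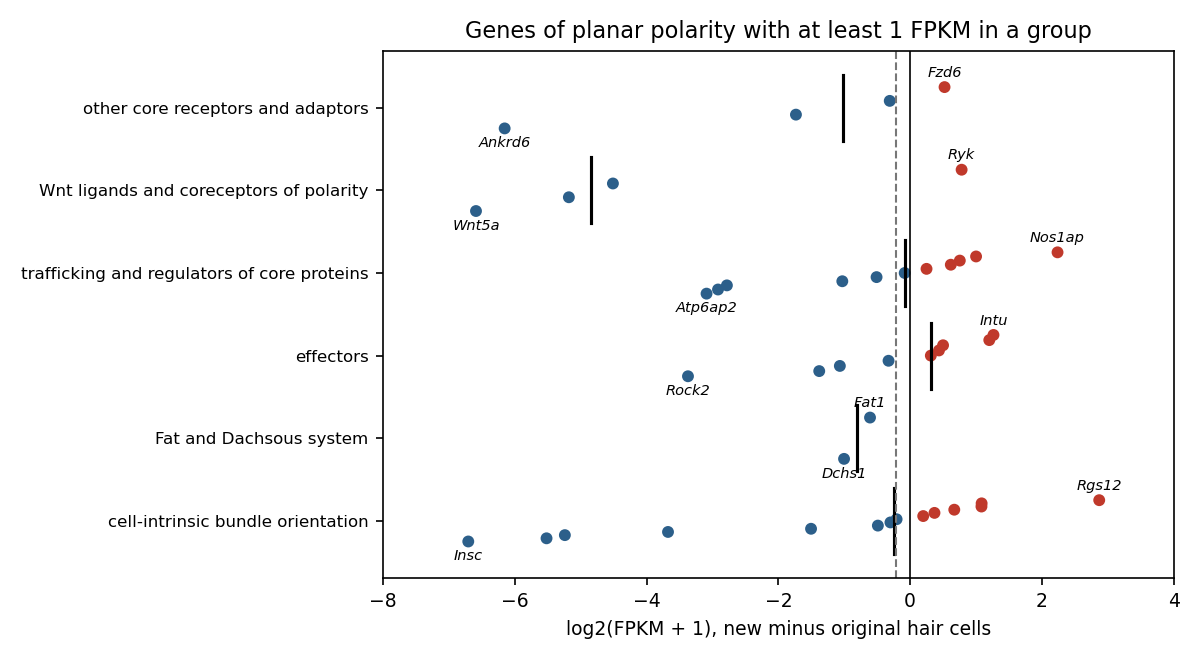
Difference in log2(FPKM + 1), new minus original hair cells, for tested genes of the 6 planar polarity lists, with red points above 0, blue points below 0, a black bar at each list's median and the dashed line at -0.21, the median of all tested genes. Medians of the lists run from -4.85 for Wnt ligands and coreceptors to 0.31 for effectors, and Ankrd6, Wnt5a and Insc are the lowest genes of their lists.

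The medians of the 6 lists were -1.02 for other core receptors and adaptors, -4.85 for Wnt ligands and coreceptors, -0.08 for trafficking and regulators, 0.31 for effectors, -0.81 for the Fat and Dachsous system and -0.25 for bundle orientation, beside -0.21 for all tested genes. These medians rest on few genes, 4 in each of the first 2 lists and 2 in the Fat and Dachsous list. Dchs1 and Fat1 both passed the filter of 1 FPKM through original hair cells alone. On the deposited scale this fixed their direction, so nothing can be read from that list's count or median. Some genes of other lists also passed through 1 population alone. Wnt9a, Emx2 and Sestd1 did so through original hair cells, and Nos1ap, Intu and Daam1 through new hair cells.

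The sort could hold other cochlear cells, so their markers were set beside these results. All 14 hair cell markers reached 1 FPKM in both populations and summed to 1164 FPKM in new and 43970 FPKM in original hair cells. Of the 14, 1 was higher and 13 were lower in new. With equal sums 4 were higher, and the summed level was still lower in new, at 0.235 times that of original hair cells. New hair cells had the higher value for 9 of the 14 tested supporting cell markers and the lower for 5, with sums of 5202 FPKM in new and 20847 FPKM in original. With equal sums all 14 were higher in new and the summed level turned to 2.21-fold higher. Under that scaling the median difference of all tested genes was 2.53 on the log2(FPKM + 1) scale, so most tested genes were higher in new. The marker counts given with equal sums are to be read beside this median. Neurons are cells in which Celsr3 is known to act, and whether they contributed to its values was not tested. Markers of spiral ganglion neurons summed to 76.0 FPKM in new and 3532 FPKM in original hair cells, with 1 of 5 tested markers higher and 4 lower in new. Nefl alone gave 3214 FPKM of the sum in original hair cells, and Gata3 gave 66.9 FPKM of the sum in new hair cells. Tubb3, Nefh and Prph stayed under 1 FPKM in both populations. When sums were made equal, 4 of the 5 tested markers were higher in new. Their list's summed level was still lower in new, at 0.191 times that of original hair cells. Mesenchyme markers summed to 413 FPKM in new and 2033 FPKM in original hair cells (2 of 7 higher), Schwann cell and glia markers to 291 in new and 1069 in original (2 of 5 higher), and immune markers to 73.0 in new and 3.74 in original (both tested markers higher). With equal sums the mesenchyme and Schwann cell sums turned to higher in new, 1.801-fold and 2.42-fold. Single genes carried much of the marker sums. Ocm gave 592 FPKM of the hair cell sum in new and 26071 FPKM in original hair cells. S100a1 gave 3617 FPKM of the supporting cell sum in new and 15179 FPKM in original hair cells. Lum gave 375 FPKM of the mesenchyme sum in new hair cells and Otor 1383 FPKM in original hair cells. Tyrobp gave 71.7 FPKM of the immune sum in new hair cells, while Csf1r, the receptor of a macrophage growth factor, stood at 0.00365 FPKM in new and 0.282 FPKM in original hair cells. The leukocyte marker Ptprc was listed at 0 in both populations and Aif1 at 0 in new hair cells. No marker of blood or endothelium in the table reached 1 FPKM in either population. The part of other cells in the values of the members was not tested.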

How the data were processed

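The tools named are CASAVA 1.8, Trimmomatic and TopHat, with build mm10, per the submitters' processing notes. Neither the program for FPKM nor the test for the p-values is given in the sources used here. The authors deposited 1 FPKM value per gene and group, so the libraries of a group were pooled or averaged by the authors, with an unadjusted p-value and a log2 ratio per gene. The log2 ratio deposited by the authors, which held text in 3311 rows where a group was at 0, served only as a check, and folds were computed from FPKM. For 3 genes it was 0 with p of 1 although FPKM differed, and these were left out. Differences are log2(FPKM + 1), with a pseudocount of 1. Starts in the table were raised by 1, since 3119 of 6753 genes with the same end in GENCODE then began at the same base.

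The planned limma test would need separate values for the libraries and was not run, so differences are descriptions. The 10 members, the 6 lists and the marker lists were chosen with earlier results of these data known, and 1 listed gene is not reported here. Named genes were all members, the 3 tested genes of highest mean level in each list and those with a deposited p under 0.05. Other settings were a filter of 5 FPKM, no filter, a pseudocount of 0.1, quantile normalization, equal FPKM sums, leaving out shared loci, and trimmed-mean scaling (dropping at each end 30% of the ratios and 5% of the levels). The scaling code was tested on simulated data. Python 3.11.15, numpy 2.4.6, pandas 2.3.3 and matplotlib 3.10.9 were used.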

Additional observations from a re-analysis of the deposited data

How the results depend on the processing

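No paired analysis was possible because the deposited table gave 1 value per group, and leaving out each replicate in turn was not run for the same reason. Celsr1, Celsr3, Celsr2, Dvl3 and Vangl2 kept their direction under every alternative that retained them, though with equal sums Celsr1 came to -0.65, under 2-fold. The median difference of the tested members, 1.14, was 2.39 with a pseudocount of 0.1, 1.38 with trimmed-mean scaling, 1.18 after quantile normalization, 3.74 with equal sums and 0.071 without a filter, and turned to -3.19 with a filter of 5 FPKM, which left only Celsr1 and Celsr3. Tested members higher in new hair cells numbered 3, against 5 without a filter and 0 with a filter of 5 FPKM. Those lower numbered 2, against 5 without a filter. Each tested member passed the filter through the population where it was high, so nothing can be read from the filtered median or counts. Equal sums raised the genes higher in new hair cells to 1 in the Fat and Dachsous list, 10 in bundle orientation, 8 in effectors, 3 in other core receptors and 9 in trafficking and regulators. Under equal sums the median difference of all tested genes was 2.53, so most tested genes were higher in new. Quantile normalization gave 8 effectors. Without a filter there were 2 in Fat and Dachsous, 3 in the Wnt list, 11 in bundle orientation and 2 in other core receptors. With a filter of 5 FPKM there were 0 in the Wnt list, effectors, other core receptors and trafficking. Without shared loci there were 3 in trafficking. Filters and shared loci change which genes are tested, and for the scalings the cause was not tested. With members under 1 FPKM in both groups left out, Dvl3 and Vangl2 each made up 100% of their family in both populations, by construction. Low FPKM limits every value of these members, since depth is unknown.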
